A study of Mus musculus with 135 samples.

Results

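Sphingolipid and ceramide metabolism was followed through 42 genes, chosen by name as the enzymes, transporters and regulators that make, convert and break down ceramide, sphingosine-1-phosphate (S1P), sphingomyelin and the gangliosides. All 42 were found in both count tables, which list 55416 genes each. The samples were pieces of cerebral cortex and hippocampus from male Townes mice, about 6 months old, whose own globin genes are replaced by human ones. AA mice carry human haemoglobin A and are the non-sickle controls, and SS mice carry human haemoglobin S and develop sickle cell disease, so every animal in the series, control or sickle, has human globin alleles. AA and SS alone denote mice that met neither stress nor drug. AA+RSD and SS+RSD mice went through repeated social defeat (RSD), in which an aggressive male was put into their home cage on successive evenings. Mice labelled AA+minocycline or SS+minocycline received minocycline, a tetracycline antibiotic that lowers microglial activation, in the drinking water without defeat, and the RSD+minocycline groups of either genotype received it before and during defeat. In cortex the comparisons used 12 AA and 8 SS controls, 2 AA+RSD and 6 SS+RSD, 18 AA+RSD+minocycline and 14 SS+RSD+minocycline, and 1 AA+minocycline and 4 SS+minocycline animals. In hippocampus there were 11 AA and 7 SS controls, and the other groups were as in cortex. The single AA+minocycline mouse entered no comparison of its own.

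Sphingolipids are built from serine and a fatty acyl chain. Serine palmitoyltransferase makes the first intermediate and is held in check by the Ormdl proteins. Ceramide synthases and a desaturase then give ceramide, which is turned into sphingomyelin, glycolipids or ceramide phosphate, or is cut by ceramidases to sphingosine, the source of S1P. Brain is rich in these lipids, with sphingomyelin and galactolipids in myelin, gangliosides on neurons, and S1P acting as a signal on glia, endothelium and blood cells.

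Reads assigned to genes ranged from 16295042 to 107713193 per cortex library (median 33447552) and from 12869149 to 68731008 per hippocampus library (median 34199033). The share of reads that mapped outside annotated genes ran from 3.685 to 13.88% in cortex and from 3.975 to 24.01% in hippocampus, and it fell into a low and a high range around 6.3%, with 60 of 64 mice on the same side in both tissues. Several libraries stood apart. The cortex and hippocampus libraries of AA+RSD mouse 9674 carried tissue markers against their tissue labels and were left out of comparisons with AA+RSD, which then has 2 mice. Mice 9887 (SS+minocycline) and 9877 (AA+RSD+minocycline) had identical counts in each tissue and both were left out. Hbb-bs, the endogenous adult beta-globin that is deleted in this strain, was near absent, at 0 to 8 counts, in all grouped libraries but those of AA mouse 9631, which held 1944 in cortex and 1570 in hippocampus. Erythroid markers stood at the level of the other genotype in mice 5844 (AA), 5853 (AA+RSD+minocycline) and 7078 (SS+RSD+minocycline). These 4 mice, whose genes go against their labels, were kept, and the results they touch are also given without them.

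Mouse numbers in the labels form 3 sets of runs, called here number series A, B and C. Every SS+RSD and AA+RSD mouse belongs to series A, while the RSD+minocycline mice are all of B or C. Controls come from both A and B, so that the difference between series could be measured in mice that met neither stress nor drug. What a series stands for is not given in the labels. The paper describes minocycline as given to a separate cohort from that of the defeat experiment without drug. It ties no mouse numbers to cohorts. Bulk tissue was sequenced, so a lower level may come from fewer cells of a type or from less RNA per cell, and these cannot be told apart here.

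The promoters of the 4 genes on which the results below turn most are shown first, as the 250 bases upstream of the annotated start, to give the sequence behind each name. They are RefSeq sequence of GRCm38.p6 (the counts were made on GRCm39, so the positions are those of the older build). Capitals mark 4 motifs searched on both strands: GATAA, the core of the site for GATA factors; GGGCGG, the GC box; CACGTG, the E-box; and TGACG, the core of the cAMP response element. No motif is contained in another.
Acer2, chr4:86874164-86874413, plus strand: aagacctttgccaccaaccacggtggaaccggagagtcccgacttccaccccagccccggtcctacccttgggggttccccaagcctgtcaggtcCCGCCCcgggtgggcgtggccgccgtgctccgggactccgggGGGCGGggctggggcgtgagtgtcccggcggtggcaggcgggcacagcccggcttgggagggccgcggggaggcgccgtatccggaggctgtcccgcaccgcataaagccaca
Smpd4, chr16:17619104-17619353, plus strand: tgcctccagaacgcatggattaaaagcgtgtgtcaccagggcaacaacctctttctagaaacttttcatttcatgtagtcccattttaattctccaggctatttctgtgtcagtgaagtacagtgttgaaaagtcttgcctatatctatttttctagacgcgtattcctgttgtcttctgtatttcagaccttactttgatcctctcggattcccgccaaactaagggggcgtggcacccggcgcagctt
Sgpp2, chr1:78310096-78310345, plus strand: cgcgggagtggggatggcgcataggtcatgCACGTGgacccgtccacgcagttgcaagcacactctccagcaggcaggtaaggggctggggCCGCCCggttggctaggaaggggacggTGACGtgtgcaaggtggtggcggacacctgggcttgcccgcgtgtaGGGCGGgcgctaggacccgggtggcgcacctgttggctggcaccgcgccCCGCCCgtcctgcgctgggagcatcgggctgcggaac
Sptssb, chr3:69859895-69860144, minus strand: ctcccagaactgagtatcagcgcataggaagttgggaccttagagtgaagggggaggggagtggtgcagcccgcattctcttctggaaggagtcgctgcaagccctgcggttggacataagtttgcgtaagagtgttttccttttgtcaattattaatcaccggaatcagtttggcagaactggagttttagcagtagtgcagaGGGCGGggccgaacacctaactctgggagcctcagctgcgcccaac
The Acer2 and Sgpp2 windows each hold 24 CpG dinucleotides, with 73.2% and 70.8% G or C, and those of Smpd4 and Sptssb hold 9 each, with 44.8% and 53.2%. GGGCGG occurs 2 times upstream of Acer2, 3 times upstream of Sgpp2 and 1 time upstream of Sptssb. Smpd4 has none of the 4 motifs in its window. Among 32841 mouse promoters, 32.75% hold GGGCGG, 22.58% GATAA, 17.77% TGACG and 6.023% CACGTG. Of the 38 members with a promoter in that table, 29 hold GGGCGG, 11 GATAA, 11 TGACG and 7 CACGTG. The shares count single promoters, while a member counts if any of its promoters matches, so these are not like for like. A match is only a run of letters and was not tested as a binding site.

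Levels were compared between genes per exon length, as reads per kilobase of exon at a library size of 1e+06 reads on genes (RPKM), in AA control mice. Plpp3, a membrane phosphatase that removes phosphate from S1P and related lipids outside the cell, stood highest, at 57.5 ± 7.45 RPKM in cortex (SD, n = 12) and 66.3 ± 6.42 in hippocampus (SD, n = 11). Smpd1, the lysosomal acid sphingomyelinase, followed at 37.6 ± 4.51 and 31.4 ± 3.05 RPKM. The spreads of these genes did not meet. St3gal5, which makes the first ganglioside GM3, stood at 21.8 ± 1.82 RPKM in cortex, and Degs1, the main dihydroceramide desaturase, at 18.2 ± 2.02. Slc1a4, which carries serine and alanine, had 17.6 ± 1.62 RPKM, Elovl4, an elongase of very long fatty acids, 16.7 ± 1.40, and B4galnt1, which extends gangliosides, 16.7 ± 1.01, so that these neighbours in the order lay within 1 SD of Degs1.

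At the other end, Sptlc3, the subunit of serine palmitoyltransferase that is little used in brain, had 0.00776 ± 0.00822 RPKM in cortex and 0.141 ± 0.188 in hippocampus, and it was too low to be tested in most cortex comparisons. Its partners Sptlc1 and Sptlc2 reached 4.54 ± 0.298 and 2.63 ± 0.114 RPKM in cortex. Among the paired small subunits, Sptssa had 8.71 ± 1.16 RPKM and Sptssb 0.629 ± 0.178. Sgms2, the sphingomyelin synthase of the plasma membrane, had 0.381 ± 0.0493 RPKM against 1.96 ± 0.103 for Sgms1 of the Golgi, and Sphk1 had 0.514 ± 0.122 against 3.78 ± 0.325 for Sphk2, the other sphingosine kinase. Of the Ormdl regulators, Ormdl3 was highest, at 11.1 ± 1.32 RPKM. In 4 of these groups one member therefore carried most of the transcripts.

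**Figure D1:**
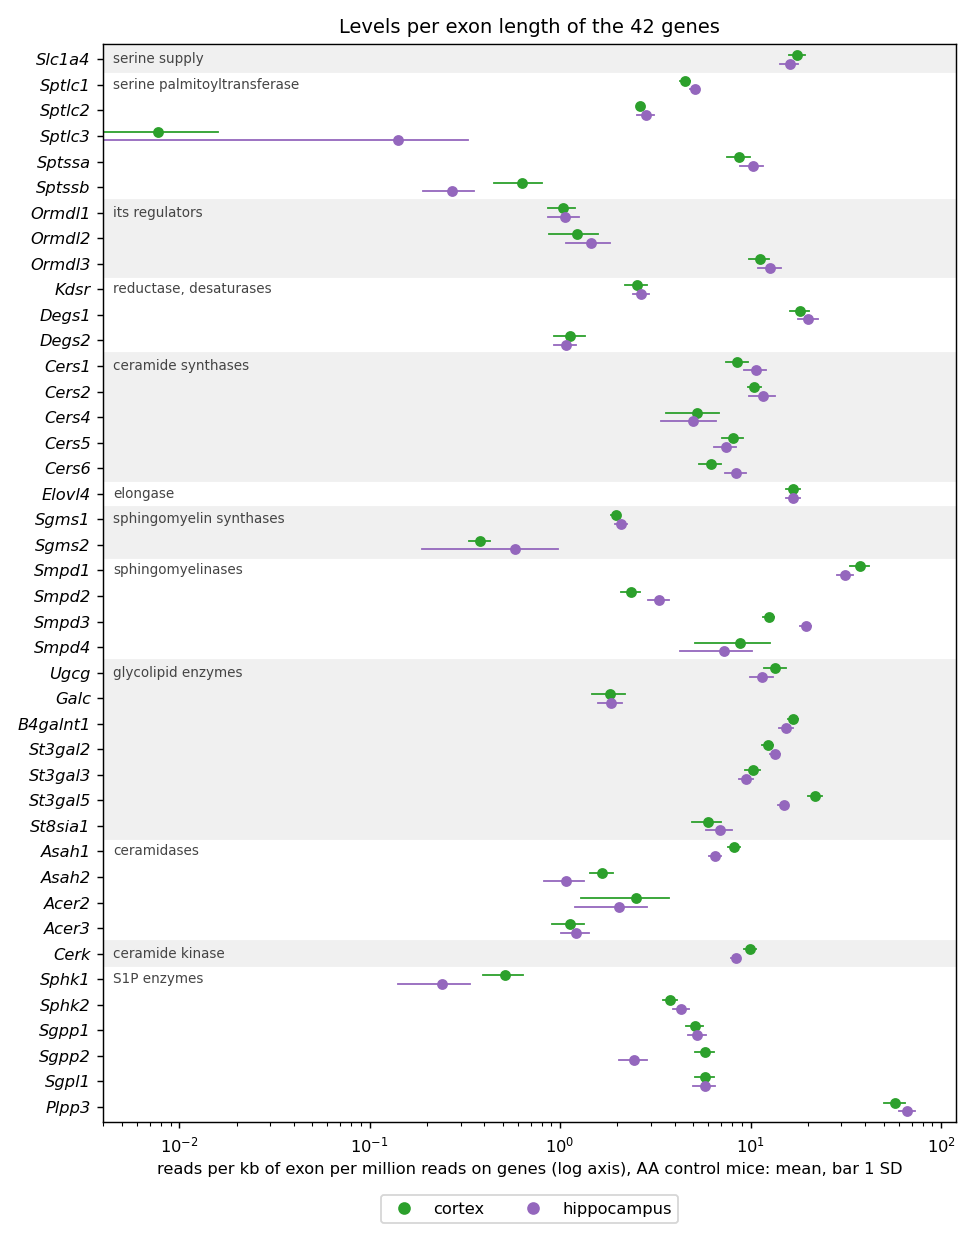
Level of each of the 42 genes in AA control mice, as RPKM on a log axis, ordered by role; points are means of 12 cortex (green) and 11 hippocampus (purple) libraries and bars are 1 SD (bars of Sptlc3 run past the left edge). Plpp3 and Smpd1 lie highest and Sptlc3 lowest, and the widest bars among the well expressed genes are those of Smpd4, Cers4 and Acer2.

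The genotype comparison asked which members differ between sickle and non-sickle mice. One did. Acer2 is an alkaline ceramidase of the Golgi that releases sphingosine from ceramide. It was about 2-fold higher in SS brains in both tissues, in control mice and after defeat with minocycline. In cortex of control mice, and after defeat without minocycline (2 AA mice), its difference was of like size but missed the threshold given below. Acer2 (ENSMUSG00000038007.15) lies at chr4:86792537-86853061 of GRCm39, on the plus strand, and 9.26% of its exonic bases overlap the opposite-strand gene Gm69733, whose reads may be mixed in because the strand setting of the counting is not given in the sources used here. In counts scaled to 1e+06 reads on genes (CPM), cortex of AA mice ran from 7.69 to 41.3 with a median of 18.6 (n = 12), and cortex of SS mice from 22.4 to 45.2 with a median of 36.04 (n = 8). The groups overlapped, yet all 8 SS mice stood above the AA median. In hippocampus AA mice ran from 6.53 to 28.03 (median 16.96, n = 11) and SS mice from 23.8 to 40.8 (median 31.2, n = 7), and 6 of the 7 SS values exceeded the highest AA value.

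Between SS and AA the log2 fold change of Acer2 was 1.02 (SE 0.22) in hippocampus, with an adjusted p of 0.0133 by edgeR's quasi-likelihood test with Benjamini-Hochberg adjustment, the test behind every adjusted p below unless another is named. A gene is called when that value is under 0.05. In cortex it was 0.87 (SE 0.22), with an adjusted p of 0.0644, so Acer2 was not called there. Across all genes, 0.214% were called in cortex and 0.159% in hippocampus. At an unadjusted p under 0.05, 1 of 42 members passed in cortex, again Acer2, against 6.55% of all genes, and DESeq2 called 1 member there. The median log2 fold change over all members, Acer2 included, was -0.02 in cortex and -0.02 in hippocampus, beside -0.00 and 0.01 over all genes tested. The lowest value in hippocampus, -1.12, was that of Sptlc3, which is near the limit of detection (SE 0.87), and it was not called.

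After defeat with minocycline the same difference stood on more mice. AA+RSD+minocycline cortex had 9.86 to 34.02 CPM of Acer2 (median 16.3, n = 18), and SS+RSD+minocycline cortex 21.04 to 47.2 (median 37.8, n = 14). All 14 SS mice lay above the AA median, and 8 of them above every AA mouse. The log2 fold change was 1.03 (SE 0.17, adjusted p = 8.8e-05). In hippocampus the AA group had 7.02 to 27.95 CPM (median 13.5), the SS group 16.9 to 44.1 (median 29.99), and the log2 fold change was 1.20 (SE 0.16, adjusted p = 1.2e-06), again with 14 of 14 SS mice above the AA median. Acer2 was the 1 member called in each tissue, where 0.624% of all genes were called in cortex and 2.74% in hippocampus. Between SS+RSD and AA+RSD, with only 2 AA mice (16.4 and 17.7 CPM in cortex, 15.4 and 15.7 in hippocampus), Acer2 had a log2 fold change of 0.99 (SE 0.42) and 1.03 (SE 0.41), each with an adjusted p of 1.

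Within SS mice the groups overlapped in Acer2. Its CPM in cortex ran from 15.2 to 51.5 in SS+RSD mice (median 32.1, n = 6) and from 26.01 to 36.6 in SS+minocycline mice (n = 4). In hippocampus the ranges were 16.2 to 43.6 (median 30.2) and 21.5 to 32.9. The log2 fold change of SS+RSD against SS was 0.05 in cortex and 0.04 in hippocampus, neither called. The single AA+minocycline mouse had 32.01 CPM in cortex and 26.3 in hippocampus, above most other AA mice, with 24.3 and 18.7 CPM summed over 6 genes of red blood cells, described next.

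**Figure D2:**
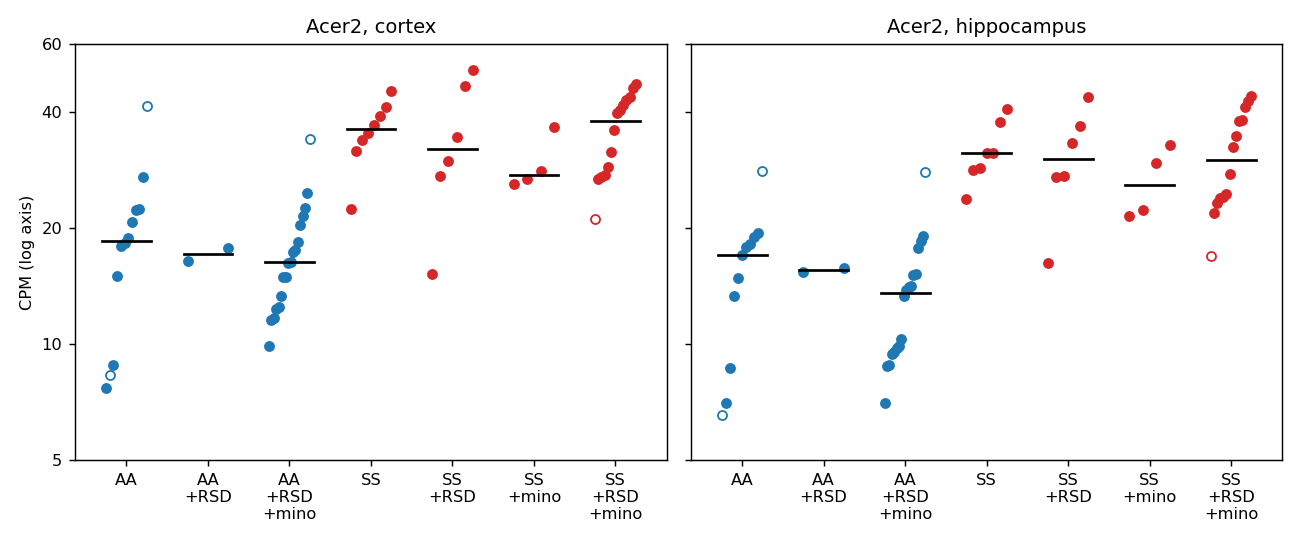
Acer2 in CPM (log axis), 1 point per mouse, in cortex and hippocampus; AA groups are blue, SS groups red, lines are medians, and open points are the 4 mice with marker genes against their labels. In cortex medians lie between 27.5 and 37.8 CPM in the SS groups and between 16.3 and 18.6 CPM in the AA groups, the single AA+minocycline mouse is not drawn, and the open points are the highest AA, the highest AA+RSD+minocycline and the lowest SS+RSD+minocycline mouse, with 1 more low in AA.

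Markers of red blood cells differed between genotypes as well. The summed CPM of 6 erythroid genes in cortex was 2.99 to 109 in AA mice (median 4.86) and 60.4 to 140 in SS mice (median 118), and in hippocampus 1.996 to 64.4 (median 4.16) and 50.95 to 151 (median 95.4). Of the 6, 5 were called higher in SS cortex and 4 in SS hippocampus. Alas2, which starts haem synthesis in red cell precursors, had log2 fold changes of 2.90 and 3.33. The highest Acer2 among AA mice was in mouse 5844, whose erythroid sum was also the highest of its group. The highest among AA+RSD+minocycline mice was in 5853 and the lowest among SS+RSD+minocycline mice in 7078, and those mice had erythroid sums of 58.1 and 7.19 CPM in cortex, the highest and the lowest of their groups. Without the 4 mice the log2 fold change of Acer2 rose to 1.13 and 1.33 in the RSD+minocycline groups of cortex and hippocampus and was 1.06 in hippocampus of control mice, and 1 member was then called in cortex of control mice too.

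Within a genotype, Acer2 and the erythroid sum were set against each other on the log2 scale, 4 relations in all. In cortex of AA mice Pearson's r was 0.66 over 34 libraries, that of mouse 9674 included (permutation p = 2e-05, adjusted 8e-05) and Spearman's rho 0.47 (permutation p = 0.00617, adjusted 0.0247), and r was 0.48 without mice 5844 and 5853, the farthest from the median. In hippocampus of AA mice r was 0.56 over 33 libraries (adjusted permutation p = 0.0011), rho was 0.41 (adjusted permutation p = 0.035), and r was 0.36 without the 2 farthest mice, again 5844 and 5853. Erythroid markers of these mice stood at the level of SS mice, as given above. Every p was computed with them included and none without them, so the p values do not speak for a relation within the other AA mice. In SS mice the relation was weaker and missed the threshold, with r of 0.24 in cortex (permutation p = 0.17, n = 32) and 0.32 in hippocampus (permutation p = 0.075, n = 31), and it was near 0 without the 2 farthest mice (-0.05 and 0.02), so it rested on them. The part of red cell RNA in the genotype difference of Acer2 was not tested. Endothelial markers differed with genotype as well. In control mice 8 of 8 had positive log2 fold changes of SS against AA in each tissue (medians 0.28 in cortex and 0.32 in hippocampus, 0 called), and between the RSD+minocycline genotypes 1 was called higher in cortex and 3 in hippocampus. Choroid plexus markers of control mice were positive for 9 of 9 in cortex (median 1.14, 1 called) and negative for 9 of 9 in hippocampus (median -0.95, 0 called). Their summed CPM in cortex was 10.35 to 40.15 in AA mice (median 17.22) and 7.106 to 1216 in SS mice (median 13.99). The SS median in cortex was thus not the higher. In hippocampus the sum was 35.85 to 4470 in AA mice (median 163.6) and 35.03 to 2435 in SS mice (median 125.5). The part of these cells in the difference of Acer2 was not tested.

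The difference in Acer2 was of like size at low and high shares of reads outside genes. Among libraries with under 6.3% of such reads, a split chosen after the data were seen, the log2 fold change of SS+RSD+minocycline against AA+RSD+minocycline was 0.97 (SE 0.30, 5 against 6 mice) in cortex and 1.08 (SE 0.30, 4 against 5 mice) in hippocampus, neither called. Among libraries at or above it the values were 1.06 (adjusted p = 0.0021) and 1.25 (adjusted p = 3.0e-04). Within series B alone they were 1.05 and 1.22, both called.

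Defeat in SS mice, SS+RSD against SS, was the next comparison. One member, Smpd4, was called, and it fell in both tissues. Smpd4 encodes a neutral sphingomyelinase of the endoplasmic reticulum and nuclear envelope, which frees ceramide from sphingomyelin. In cortex its CPM ran from 41.1 to 130 in SS mice (median 111, n = 8) and from 34.6 to 55.8 in SS+RSD mice (median 44.9, n = 6). In hippocampus the ranges were 42.1 to 94.1 (median 92.1, n = 7) and 33.2 to 50.04 (median 37.7, n = 6). In each tissue 1 SS mouse (5353, with 41.1 CPM in cortex and 42.1 in hippocampus) lay within the range of the defeated mice, a second (5349, with 62.3 and 51.3) lay just above it, and the other SS mice stood well apart from it. The log2 fold change was -1.03 (SE 0.25, adjusted p = 0.041) in cortex and -0.91 (SE 0.25, adjusted p = 0.045) in hippocampus.

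Mice 5353 and 5349 were the SS control mice of series A. Cortex of the 2 series A mice averaged 51.7 CPM of Smpd4 and that of the 6 series B mice 118, and all SS+RSD mice are of series A. Against the series A controls alone the log2 fold change was -0.17 (SE 0.19) in cortex and -0.23 (SE 0.16) in hippocampus, not called. With the series as a term it was -0.16 (SE 0.31) and -0.25 (SE 0.32). Smpd4 also moved with the share of reads outside genes. Over all libraries, mouse 9674 included, its median was 47.7 CPM under 6.3% (29.7 to 89.3, n = 28) and 112 at or above (44.5 to 133, n = 38) in cortex, and 37.6 (29.7 to 51.3, n = 27) against 86.8 (33.5 to 99.5, n = 37) in hippocampus. Of the SS+RSD libraries, 5 of 6 in cortex and 6 of 6 in hippocampus lay under 6.3%, against 2 of 8 and 2 of 7 of the SS libraries. The part of the series and of this share in the fall of Smpd4 was not tested beyond these values.

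**Figure D3:**
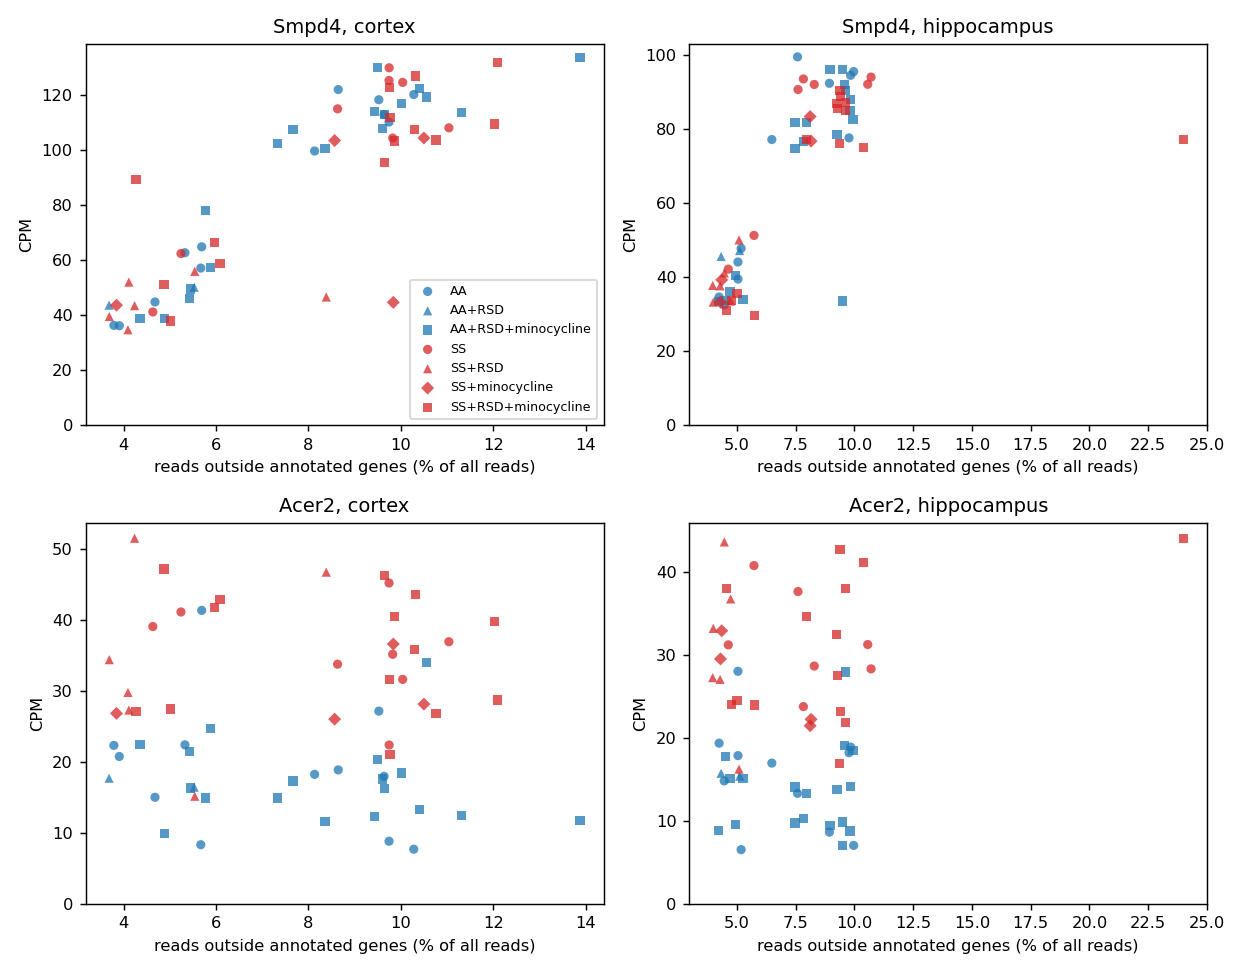
Smpd4 (top) and Acer2 (bottom) in CPM against the percentage of reads outside annotated genes, 1 point per library, for cortex (left) and hippocampus (right); colour gives the genotype and shape the condition. Smpd4 has a median of 47.7 CPM under a share of 6.3% and of 112 CPM above it in cortex, with both genotypes alike, while most SS libraries lie above most AA libraries in Acer2 at low and at high shares.

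The call on Smpd4 was not stable to single mice. Leaving out any of SS+RSD mice 5354, 5391, 9615, 9616 or 9621 ended it in both tissues, and it was kept without mouse 5400 (-1.13 in cortex, adjusted p = 0.038, and -1.02 in hippocampus, adjusted p = 0.033). Over all genes, 2.57% were called in cortex and 3.11% in hippocampus, so 1 of 41 and 1 of 42 members is near that share. At an unadjusted p under 0.05, 12 members passed in cortex, against 27.7% of all genes, and 11 in hippocampus, against 19.6%. The median log2 fold change of the members was 0.10 in cortex and 0.11 in hippocampus, beside 0.08 and 0.06 over all genes.

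Cell markers differed in the same comparison. In cortex, log2 fold changes were positive for 8 of 8 microglia markers (median 0.44, 1 called), 12 of 12 oligodendrocyte markers (median 0.34), 8 of 9 astrocyte markers (median 0.39), 8 of 8 endothelial markers (median 0.30) and 5 of 5 erythroid markers (median 0.60), and negative for 8 of 8 choroid plexus markers (median -0.71), with 0 called in the last 5 lists. Neuron markers were positive for 7 of 8 (median 0.11, 0 called). The summed choroid plexus CPM was 7.106 to 1216 in SS cortex (median 13.99) and 8.815 to 24.3 in SS+RSD cortex (median 15.43). Those medians did not fall. In hippocampus log2 fold changes were positive for 8 of 8 microglia, 12 of 12 oligodendrocyte and 9 of 9 choroid plexus markers, the last with a median of 1.89. They were also positive for 8 of 8 neuron (median 0.20), 8 of 9 astrocyte, 6 of 8 endothelial and 6 of 6 erythroid markers, and 0 were called in any of these lists. The summed choroid plexus CPM there was 35.03 to 2435 in SS mice (median 125.5) and 40.69 to 9372 in SS+RSD mice (median 46.65). Its median was thus lower in SS+RSD mice. All SS+RSD mice are of series A. In control mice, 8 of 8 microglia markers were lower in series B than A in each tissue (cortex 7 called, hippocampus 6). Oligodendrocyte markers were lower for 10 of 12 in cortex (3 called) and 12 of 12 in hippocampus (9 called). Astrocyte markers were lower for 8 of 9 (4 called) and 7 of 9 (3 called). Erythroid markers were higher for 4 of 4 in cortex (0 called). The part of these cell types in the values of the members, and of the series in those of the markers, was not tested.

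The 9 members named by the study from these same samples were followed whether called or not, which makes them no independent evidence of direction. None was called between SS+RSD and SS. In cortex the largest values were those of Ormdl2, an inhibitor of serine palmitoyltransferase, at 0.50 (adjusted p = 0.19), Sphk1, which makes S1P, at 0.36 (adjusted p = 0.36), and Smpd1 at 0.33 (adjusted p = 0.10). St3gal2, a sialyltransferase that builds the complex gangliosides of neurons, had 104 to 123 CPM in SS cortex (median 108) and 113 to 121 in SS+RSD cortex (median 117), a log2 fold change of 0.19 (adjusted p = 0.10). The rest in cortex lay between 0.16 (Slc1a4) and 0.26 (Ormdl3). In hippocampus St3gal2 had 0.27 (adjusted p = 0.068), St3gal3, another sialyltransferase, 0.26 (adjusted p = 0.13) and Ormdl2 0.59 (adjusted p = 0.22), while Sphk1 had -0.44 (adjusted p = 0.55), opposite to its sign in cortex. Plpp3, Slc1a4, Ormdl3, Elovl4 and Smpd1 lay between 0.15 and 0.29.

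Minocycline during defeat, SS+RSD+minocycline against SS+RSD, was compared next. In cortex 7 of 41 members were called, 3 higher and 4 lower, where 8.85% of all genes were called, and in hippocampus 3 of 42, 1 higher and 2 lower, where 5.96% were. Every member called lower, in either tissue, is among those the study named as lower in this comparison of these same samples. The counts called and the lower direction are therefore no independent evidence about the members. This comparison shares its SS+RSD mice with that of SS+RSD against SS, so the values of the pair are not independent. It also sets series B and C mice against series A mice, so the drug and the series cannot be told apart.

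Among genes of synthesis, Slc1a4 fell in cortex, from 71.4 to 88.8 CPM in SS+RSD mice (median 78.4, n = 6) to 62.3 to 76.6 in SS+RSD+minocycline mice (median 72.4, n = 14), with 6 of 14 treated mice below every SS+RSD mouse and a log2 fold change of -0.26 (SE 0.07, adjusted p = 0.014). Elovl4 fell from a median of 54.4 CPM (49.5 to 57.03) to 50.04 (40.7 to 56.8), again with 6 of 14 treated mice below every SS+RSD mouse, and the log2 fold change was -0.25 (SE 0.08, adjusted p = 0.039). Cers4, a ceramide synthase that prefers long acyl chains, rose from 41.9 to 54.2 CPM (median 47.4) to 43.4 to 112 (median 86.2), with 13 of 14 treated mice above every SS+RSD mouse, and the log2 fold change was 0.64 (SE 0.19, adjusted p = 0.030). Cers5, a ceramide synthase that makes C16 ceramide, rose from 32.3 to 35.3 CPM (median 34.2) to 33.9 to 51.1 (median 43.3), also with 13 of 14 above every SS+RSD mouse, a log2 fold change of 0.21 (SE 0.07, adjusted p = 0.041). Ormdl2 was the gene of synthesis called in hippocampus. It fell from 5.61 to 10.9 CPM (median 6.68) to 2.59 to 6.28 (median 4.13), a log2 fold change of -0.77 (SE 0.23, adjusted p = 0.046), and 11 of 14 treated mice lay below every SS+RSD mouse. Dnajc14 on the opposite strand overlaps 56.6% of its exonic bases, so its counts are uncertain.

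Among the genes that release ceramide or break it down, Smpd4 rose in cortex to 37.8 to 132 CPM (median 103), a log2 fold change of 0.92 (SE 0.23, adjusted p = 0.016), with 12 of 14 treated mice above every SS+RSD mouse. In hippocampus its level was 29.7 to 90.5 CPM (median 77.2) and the log2 fold change 0.72, which was not called. Smpd1 fell in cortex from 118 to 176 CPM (median 141) to 105 to 155 (median 123), a log2 fold change of -0.35 (SE 0.11, adjusted p = 0.0497). Acer3, an alkaline ceramidase, rose in hippocampus from 13.1 to 18.7 CPM (median 15.7) to 15.4 to 26.3 (median 20.5), a log2 fold change of 0.31 (SE 0.09, adjusted p = 0.047), with 10 of 14 above every SS+RSD mouse.

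St3gal2 was the one member called in both tissues. It fell in cortex from 113 to 121 CPM (median 117) to 84.0 to 116 (median 101), with 13 of 14 treated mice below every SS+RSD mouse, a log2 fold change of -0.34 (SE 0.07, adjusted p = 0.0079), and in hippocampus from 118 to 143 CPM (median 133) to 95.4 to 129 (median 120), a log2 fold change of -0.26 (SE 0.08, adjusted p = 0.042), with 7 of 14 below every SS+RSD mouse. Of the study's other named genes, Sphk1 had -0.62 in cortex (adjusted p = 0.092) and -0.59 in hippocampus (adjusted p = 0.27), Ormdl2 -0.60 in cortex (adjusted p = 0.075), and St3gal3, Ormdl3 and Plpp3 between -0.31 and -0.17 in both tissues. In hippocampus Slc1a4 had -0.25 (adjusted p = 0.071), Smpd1 -0.31 (adjusted p = 0.089) and Elovl4 -0.01. The median over all members was -0.13 in cortex and -0.06 in hippocampus, beside -0.05 and -0.03 over all genes, and 16 members passed an unadjusted p under 0.05 in each tissue, against 26.4% of all genes in cortex and 26.8% in hippocampus.

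The same members were measured between number series B and A in control mice. These libraries are in neither group of the minocycline comparison, but the SS controls among them entered its model, which held all SS groups. The calls of the comparisons are therefore not fully separate. In cortex 17 of 41 members were called between the series, 8 higher in B and 9 lower, where 42.8% of all genes were called, and in hippocampus 20 of 42, 10 in each direction, where 44.3% were. Smpd4 was higher in series B by 1.04 in cortex and 0.84 in hippocampus, Cers4 by 0.73 and 0.64, and Acer3 by 0.37 and 0.40. Galc, the lysosomal enzyme that degrades galactosylceramide of myelin, was higher by 0.34 and 0.31. Log2 fold changes were negative, in cortex and hippocampus, for Ormdl2 (-0.57 and -0.74), Degs1 (-0.33 and -0.45), Smpd1 (-0.33 and -0.42) and St3gal2 (-0.22 and -0.19). Of the members called between SS+RSD+minocycline and SS+RSD, 7 of 7 in cortex and 3 of 3 in hippocampus had the same sign between the series, and 6 and 3 of them were called there too. Over all members 32 of 41 and 34 of 42 shared their sign. Pearson's r across members, which are not independent of each other, was 0.93 in cortex and 0.78 in hippocampus.

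**Figure D4:**
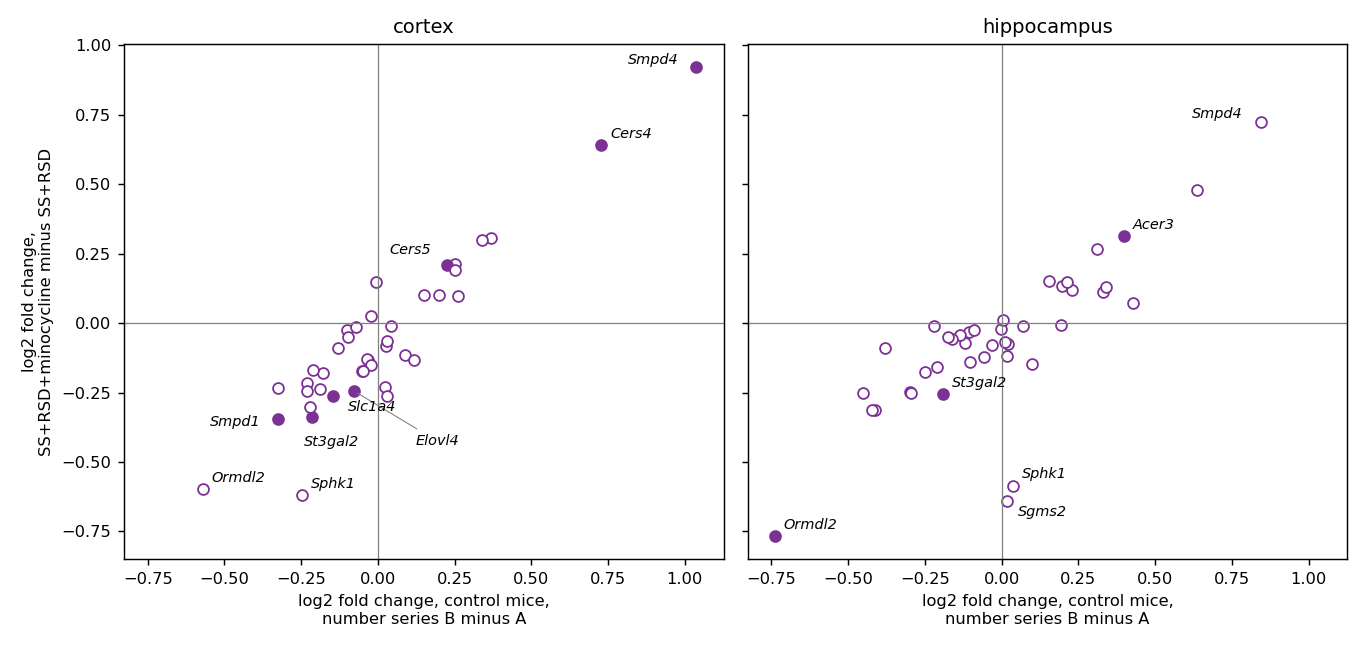
Log2 fold change of each member between SS+RSD+minocycline and SS+RSD (vertical axis) against its log2 fold change between control mice of number series B and A (horizontal axis); filled points are members called in the minocycline comparison, and Sptlc3 is not drawn. The points lie along a rising line, with Smpd4 at the top right at 1.04 and 0.92 in cortex and Ormdl2 at the lower left.

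With the series as a term, 0 members were called between SS+RSD+minocycline and SS+RSD, and Smpd4 and Cers4 changed sign in cortex, to -0.22 and -0.27. That fit takes the difference between series A and B from the SS control mice, 2 of series A and 6 of series B in cortex. With libraries under 6.3% of reads outside genes alone, 5 against 5 mice in cortex and 4 against 6 in hippocampus, 0 members were called. St3gal2 then had -0.34 in cortex (SE 0.11, unadjusted p = 0.010 by edgeR, adjusted p = 0.88) and -0.21 in hippocampus, against 0.36 and -0.22 for Smpd4 and 0.19 for Cers4 in cortex. Slc1a4, Elovl4 and Smpd1 had -0.20, -0.18 and -0.19 in cortex, Cers5 had 0.16, and in hippocampus Ormdl2 had -0.25 and Acer3 0.14. Leaving out single SS+RSD mice left 2 to 6 members called in cortex (4 without mouse 5400, 2 without 9615, 3 without 9616 and 3 without 5354) and 0 or 1 in hippocampus, where mice 5354, 5391, 9615, 9616 and 9621 each ended every call when left out. St3gal2 in cortex stayed called with each of the 6 SS+RSD mice left out in turn.

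Cell markers differed in this comparison too. Of 8 microglia markers, 2 were called lower in each tissue, with medians of -0.31 in cortex and -0.41 in hippocampus, and their summed CPM in cortex was 371 to 501 in SS+RSD mice (median 415) and 275 to 492 in SS+RSD+minocycline mice (median 355). Of 9 astrocyte markers, 3 were called lower in cortex and 1 in hippocampus, with summed CPM in cortex of 1414 to 2129 (median 1485) and 889 to 2197 (median 1330). Of 12 oligodendrocyte markers, 0 were called. Among 9 choroid plexus markers in hippocampus, 9 had negative values (median -2.09) and 2 were called lower. Their summed CPM was 40.69 to 9372 in SS+RSD mice (median 46.65) and 25.05 to 2282 in SS+RSD+minocycline mice (median 47.01), so the medians were alike. Among 5 erythroid markers in cortex, 2 were called lower (median -1.02). Of 8 endothelial markers, 1 was called lower in each tissue (medians -0.30 in cortex and -0.27 in hippocampus), and of 8 neuron markers, 1 was called lower in cortex. Between series B and A of control mice, microglia markers were lower as well, 7 of 8 in cortex and 6 of 8 in hippocampus. Their part in the changes of the members was not tested.

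In the remaining comparisons no member was called. Minocycline without defeat, SS+minocycline against SS, had 0 members and 0% of all genes called in cortex and in hippocampus. At an unadjusted p under 0.05 by edgeR, 2 of 41 members passed in cortex, against 7.06% of all genes, and 0 of 42 in hippocampus, against 2.17%. The 2 were Sptlc2 (0.18, SE 0.08) and Sphk1 (-0.68, SE 0.32). Sphk1 had 1.84 to 3.95 CPM in SS cortex (median 3.37) and 1.40 to 2.25 in SS+minocycline cortex (n = 4), so the ranges met at their ends. Within series B, where both SS+minocycline mice were as low in Smpd4 as series A mice (43.5 and 44.5 CPM), 11 members were called in cortex, where 27.1% of all genes were called, Smpd4 among them at -1.26 (SE 0.35, adjusted p = 0.014).

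In AA mice, AA+RSD against AA gave 0 members called, beside 0% of all genes in cortex and 0.0419% in hippocampus, and 1 of 41 (Sgpp1, an S1P phosphatase, 0.31, SE 0.13) and 1 of 42 (Slc1a4, 0.23, SE 0.11) passed an unadjusted p under 0.05 by edgeR, against 5.25% and 3.89% of all genes. With mouse 9674 kept as labelled, Sptlc3 was called in cortex at 4.12 (adjusted p = 0.012). AA+RSD+minocycline against AA+RSD gave 0 called, beside 0% in cortex and 0.0419% in hippocampus. Here 7 of 41 members in cortex and 1 of 42 in hippocampus passed an unadjusted p under 0.05, against 13.1% and 6.95% of all genes. The 7 were Smpd4 (0.95), Galc (0.38) and Sgpl1, the lyase that degrades S1P (0.30), with positive values, and Ugcg, which makes glucosylceramide (-0.37), Sgpp1 (-0.36), Elovl4 (-0.26) and St3gal2 (-0.25), with negative ones. With mouse 9674, Sptlc3 in cortex (-3.76, adjusted p = 0.0058) and Sgpp2 in hippocampus (-0.92, adjusted p = 0.0051) were called. Sgpp2 differs between the tissues, as given below. Sptlc3 was too low to be tested between them, and its CPM was higher in hippocampus in 10 of 11 AA and 5 of 7 SS control mice.

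Between SS+RSD and AA+RSD, 0 members were called, beside 0% of all genes in cortex and 0.0171% in hippocampus. At an unadjusted p under 0.05 by edgeR, 2 of 41 passed in cortex (Acer2, and Ugcg at -0.36) and 1 of 42 in hippocampus (Acer2), against 2.93% and 2.85%. The interaction of genotype and RSD, which asks whether defeat acted differently in SS and AA mice, had 0 members called, beside 0% and 0.0128% of all genes, and 0 of 41 and 0 of 42 members passed an unadjusted p under 0.05, against 1.85% and 2.66%. With 2 AA+RSD mice these comparisons could show large differences only.

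Control mice also allowed cortex and hippocampus to be compared. In AA mice 17 of 41 were called, 7 higher in hippocampus and 10 lower, where 37.1% of all genes were called, and in SS mice 10 of 41, 4 higher and 6 lower, where 29.4% were. Both shares were near those of all genes. In both genotypes 9 were called with the same sign, and 40 of 41 members shared their sign. With the mouse as a replicate block, since both pieces come from one brain, 28 members were called in AA mice (12 higher, 16 lower), where 53% of all genes were called, and 21 in SS mice (9 higher, 12 lower), where 41.3% were, of which 19 were called in both with the same sign.

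Some genes of S1P handling, of ceramide breakdown and of the first step of synthesis were lower in hippocampus, but not all members of these groups were. Sptssa, the small subunit with more transcripts, was higher under the block, by 0.22 in AA mice (adjusted p = 0.0011) and 0.25 in SS mice (adjusted p = 0.012). Sptlc1, Sphk2 and Plpp3, given below, also had positive values. Sgpp2, an S1P phosphatase of the endoplasmic reticulum, had 19.8 to 27.8 CPM in AA cortex (median 23.9, n = 12) and 6.99 to 13.03 in AA hippocampus (median 10.2, n = 11), ranges that did not meet, and its log2 fold change of hippocampus over cortex was -1.25 in AA mice (SE 0.09, adjusted p = 1.1e-11) and -1.25 in SS mice (SE 0.12, adjusted p = 2.1e-07). Farsb on the opposite strand overlaps 32% of its exonic bases. Sptssb, a small subunit that changes the chain preference of serine palmitoyltransferase, had 1.31 to 3.47 CPM in AA cortex and 0.719 to 1.78 in AA hippocampus, with log2 fold changes of -1.23 (SE 0.17) and -1.36 (SE 0.17). Sphk1 was lower in AA mice, with -1.13 (SE 0.20), and had -0.80 in SS mice, where it was called with the block alone (-1.04).

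The ceramidases Asah2, the neutral form, and Asah1, the lysosomal acid form, were lower in hippocampus, with log2 fold changes of -0.64 and -0.35 in AA mice and -0.66 and -0.32 in SS mice. Cerk, which phosphorylates ceramide, had -0.27 in AA and -0.32 in SS mice, and St3gal5 had -0.57 and -0.45. Sgpp2, Sptssb, Asah1, Asah2 and Cerk were lower in hippocampus in each of 11 AA and 7 SS mice. Smpd1 (-0.28), Ugcg (-0.24) and B4galnt1 (-0.13) were called in AA mice. In SS mice Smpd1 was called with the block (-0.27, adjusted p = 0.0012, lower in 7 of 7 mice), while Ugcg (-0.21, adjusted p = 0.071) and B4galnt1 (-0.14, adjusted p = 0.079) were not, and whether they differ between genotypes was not tested.

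Higher in hippocampus was Smpd3, the neutral sphingomyelinase of neurons, with 60.9 to 77.9 CPM in AA cortex (median 72.3) and 92.8 to 122 in AA hippocampus (median 113). Its log2 fold change was 0.63 (SE 0.05, adjusted p = 2.3e-10) in AA and 0.60 (SE 0.07, adjusted p = 3.1e-06) in SS mice. Smpd2, another neutral sphingomyelinase, was higher by 0.48 and 0.49, and Cers6, a ceramide synthase that makes C16 ceramide, by 0.43 and 0.49. Each of these was higher in hippocampus in all 11 AA and all 7 SS mice. Ppil6 on the opposite strand overlaps 28.6% of the exonic bases of Smpd2. Sgms2 (0.57), Cers1 (0.31), Sphk2 (0.18) and Sptlc1 (0.15) were called higher in AA mice and Plpp3 (0.24) in SS mice, and the call on Sgms2 was lost with the block. Under the block Plpp3 was called in AA mice too (0.22, adjusted p = 5.1e-05, higher in 11 of 11 mice), and Cers1 in SS mice (0.24, adjusted p = 0.0069, higher in 7 of 7 mice).

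**Figure D5:**
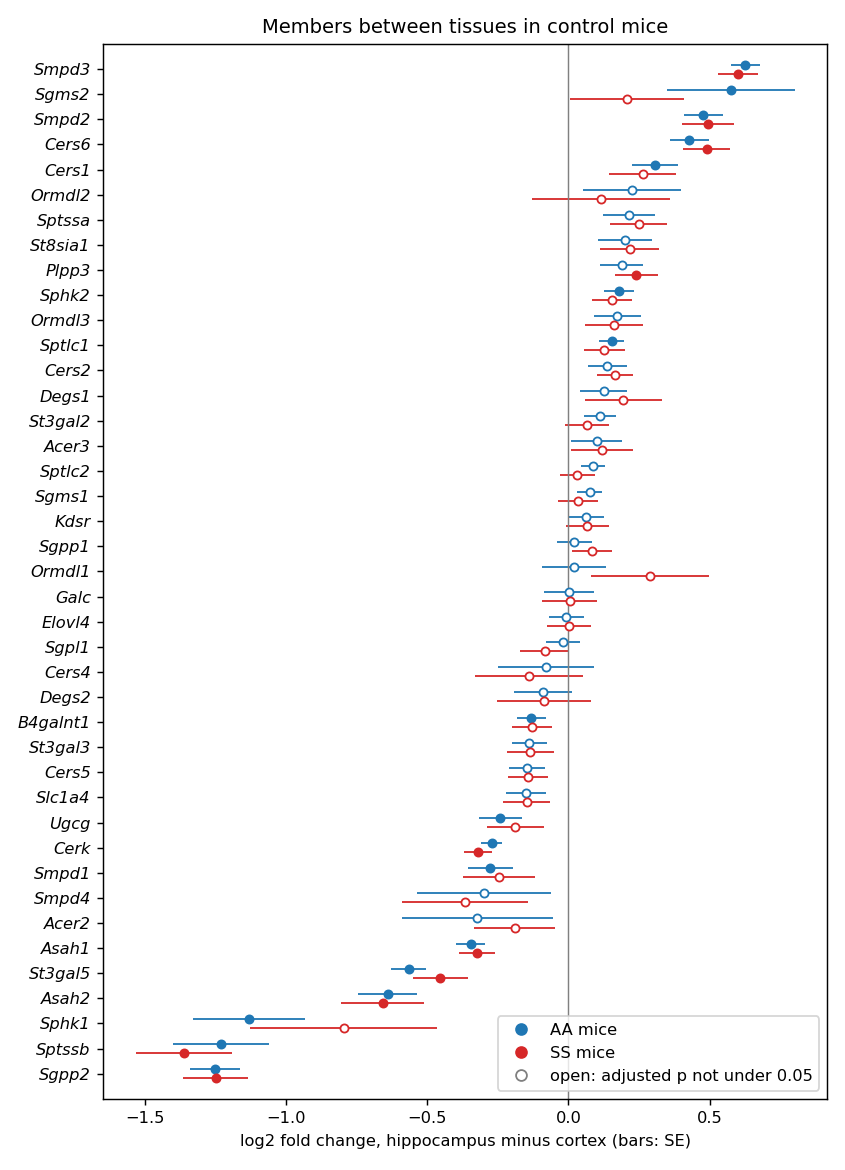
Log2 fold change of hippocampus over cortex for 41 members in AA (blue) and SS (red) control mice, sorted by the AA value; bars are 1 SE and open points were not called. Sgpp2, Sptssb and Sphk1 lie lowest at -0.80 to -1.36 and Smpd3 highest at 0.60 to 0.63, and the genotypes follow each other closely.

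A further list of 57 sphingolipid genes outside the 42, covering S1P transport and receptors, serine synthesis, elongases and glycolipid enzymes, was tested in the same way, with 54 or 55 passing the filter on low counts. Between SS and AA, 0 were called in either tissue, and between the RSD+minocycline genotypes 1 in cortex, Slc1a5, a transporter of neutral amino acids (0.54, SE 0.13, adjusted p = 0.014), and 0 in hippocampus. Of all genes, 0.214% in cortex and 0.159% in hippocampus were called between SS and AA, and 0.624% and 2.74% between the RSD+minocycline genotypes. Between SS+RSD and SS the one gene called in each tissue was Mfsd2b, the S1P exporter of red cells and platelets, which was lower after defeat, with a log2 fold change of -1.59 (SE 0.42, adjusted p = 0.044) in cortex and -1.77 (SE 0.49, adjusted p = 0.045) in hippocampus. In that comparison 2.57% of all genes were called in cortex and 3.11% in hippocampus. Between SS+RSD+minocycline and SS+RSD, Mfsd2b rose by 1.62 and 1.77. It was also higher in series B than A of control mice, by 1.61 and 1.89. Between SS+RSD+minocycline and SS+RSD, 5 of 54 genes of the list were called in cortex, where 8.85% of all genes were. In hippocampus 2 of 55 were called, where 5.96% of all genes were. In cortex 4 were lower: Phgdh and Psat1, enzymes of serine synthesis (-0.49 and -0.36), Hsd17b12, of fatty acid elongation (-0.41), and A4galt, which makes globotriaosylceramide (-0.48). In hippocampus Gba2, the non-lysosomal glucosylceramidase, was higher by 0.29. Between series B and A, Phgdh had -0.42 in cortex and -0.55 in hippocampus, Psat1 -0.34 and -0.52, and Hsd17b12 -0.36 and -0.38, all called. Of this list, 23 of 54 genes in cortex and 26 of 55 in hippocampus were called between the series, near the shares of all genes, 42.8% and 44.3%. Spns2, the S1P exporter of endothelium, was higher in hippocampus than in cortex, by 0.49 in AA and 0.47 in SS mice.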

How the data were processed

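Total RNA of cortex and hippocampus was made into directional polyA libraries and sequenced single-end. Per the labels, the authors aligned reads to GRCm39 with STAR and counted reads per gene of the GENCODE annotation while mapping; the STAR version, annotation release and strand setting are not given in the sources used here. The values are raw counts as deposited by the authors, in 1 table per tissue, with no normalization. The 4 summary lines of STAR were kept out of library sizes, and 3 table columns with no sample in the labels used here were not used. One sample with conflicting tissue labels was left unassigned.

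Groups were taken from the genotype, stress and treatment labels. The members and lists were chosen with earlier results of these data known. Genes were kept by edgeR 4.0.16 filterByExpr (count of at least 10, total of at least 15; R 4.3.3), scaled by TMM and tested with the quasi-likelihood test over all genes, with Benjamini-Hochberg adjustment and a threshold of 0.05. Comparisons within a genotype used 1 model of all its groups, and those between genotypes 1 model of all groups, without mouse 9674 where AA+RSD entered. CPM are counts scaled to 1e+06 reads on genes, without TMM, and RPKM divides them by the length of merged exons in the GENCODE annotation of GRCm39. Members called were named, up to 12 per comparison by absolute log2 fold change, and the 9 members named in the paper were given in 2 comparisons whether called or not. Nothing says that same-group samples were raised separately beyond being different mice. The labels number each mouse in both tissues, so the tissue comparison is paired by animal; the correlation of the pieces' deviations from their group means was 0.561 to 0.814 in 11 AA and 0.203 to 0.873 in 7 SS mice, and 9 and 4 of them correlated best with their own number. Correlations were tested with 100000 permutations, two-sided.

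Alternatives were RLE size factors, DESeq2 1.42.0, no filter, the number series or the share of reads outside genes as a term, a model of only the groups compared, single series, single mice or the 4 mice with genes against their labels left out, mouse 9674 kept, and, added after the data were seen, libraries split at 6.3% of reads outside genes. The code was tested on simulated counts. Each library had at least 12869149 reads on genes, so spread between mice rather than counting limited the precision of all but the lowest members.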

Additional observations from a re-analysis of the deposited data

Results flagged for a closer look

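In hippocampus of SS+RSD mice, Ormdl2 stood at 10.86 CPM in mouse 9615, apart from the other 5 mice, of which the next had 7.526 and the lowest 5.614; the gap was 0.6355 of the range, past Dixon's limit for 6 samples. It was the one such value among 60 groups of members examined, of which chance alone gives about 5%. Without mouse 9615, Ormdl2 was not called between SS+RSD+minocycline and SS+RSD. Leaving out mouse 5354, 5391, 9616 or 9621 in its place ended that call as well.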

How the results depend on the processing

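The number of members called depended on the settings as follows. Between SS and AA in cortex 0 became 1 with DESeq2, without mice 5844, 9631, 5853 and 7078, and with the number series or the share of reads outside genes as a term; in hippocampus 1 became 0 with a model of only the groups compared, in series A or B alone, and on either side of 6.3% of reads outside genes. Between the RSD+minocycline genotypes 1 became 0 in cortex and 0 in hippocampus under 6.3%, 2 in cortex at or above it, and 2 in hippocampus with the series as a term. Acer2 kept its sign under every alternative run for it.

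Between SS+RSD and SS, cortex gave 3 with DESeq2 and 6 with only the groups compared, and 0 without the filter, with the series or the share as a term, in series A and under 6.3%; hippocampus gave 2 with DESeq2 and 0 with RLE size factors, without the filter, without the 4 mice, with the series or the share as a term, in series A and under 6.3%. Leaving out 1 SS+RSD mouse gave 0 to 1 in each tissue.

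Between SS+RSD+minocycline and SS+RSD, cortex gave 4 without the filter and 0 with the series or the share as a term and under 6.3%, and leaving out 1 SS+RSD mouse gave 2 to 6; hippocampus gave 8 with DESeq2, 5 with only the groups compared, and 0 without the filter, without the 4 mice, with the series or the share as a term and under 6.3%, and 0 to 1 with 1 mouse left out. With the series as a term, log2 fold changes turned sign in cortex for Smpd1 (0.154), Cers4 (-0.272), Cers5 (-0.004) and Smpd4 (-0.219), and in hippocampus for Acer3 (-0.179) and Ormdl2 (0.254). The cause of these changes was not tested.

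SS+minocycline against SS gave 11 in cortex within series B. With mouse 9674 kept, AA+RSD against AA gave 1 in cortex, and AA+RSD+minocycline against AA+RSD gave 1 in cortex and 1 in hippocampus; with the series as a term it gave 1 in cortex, Ugcg (-0.57, adjusted p = 0.011 by edgeR). With the mouse as a replicate block, the tissue comparison rose from 17 to 28 members in AA and from 10 to 21 in SS mice. Other comparisons use different mice in each group, so no pairing applied. Small groups (2 AA+RSD mice), the number series and opposite-strand overlap limit these results. Their weight beside that of depth was not compared.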
